A study of Mus musculus with 2 samples.

Results

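The mir-142 and mir-223 hairpins, both of blood cells, were followed in small RNA sequencing of TAMs and SMs. All rows of the deposited table named for either arm of these hairpins were taken, which gave 4 mature miRNAs of 717: mmu-miR-142-5p, mmu-miR-142-3p, mmu-miR-223-3p and mmu-miR-223-5p, called without the mouse prefix from here on. TAMs came from tumors of the 4T1 mouse breast cancer cell line, grown in the mammary fat pad of female BALB/c mice injected at 8 weeks of age and harvested 3 weeks later, and were pulled from digested, red-cell-lysed tumor tissue with anti-CD11b beads. SMs were macrophages of the spleen of naïve BALB/c mice, with neither their selection nor the number of mice behind either library given in the sources used here. CD11b is carried by macrophages, monocytes, neutrophils and NK cells alike, so the beads enrich for myeloid cells rather than for macrophages alone. The paper reports that sorted cells were checked for purity and viability by flow cytometry, with CD11b as the marker. The percentages appear only in a figure and were not used here. Each group was 1 library made from 3 µg of RNA, with 7333652 miRNA reads in TAMs and 10108834 in SMs, and no difference between them has a replicate check or a p-value.

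A miRNA hairpin is cut by Dicer into a duplex of 2 short strands, called the 5p and the 3p arm, and usually one of them is loaded into Argonaute as the guide that represses mRNAs while the other is degraded. Mir142 is transcribed in nearly all cells of the blood lineages and in few others, so its miRNAs are widely used as a mark of leukocytes, and mice that lack it have defects of lymphocytes, dendritic cells and platelets. Mir223 is switched on in the granulocyte and monocyte lineage, where miR-223-3p restrains neutrophil production and represses the mRNAs of the transcription factor Mef2c and of the inflammasome sensor Nlrp3.

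The 4 mature sequences of the table were found base for base in RefSeq on GRCm38.p6. They are shown 5′ to 3′ with the seed, bases 2 to 8, in capitals, because the seed decides which mRNAs a strand can pair with.
miR-142-5p: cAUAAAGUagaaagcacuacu
miR-142-3p: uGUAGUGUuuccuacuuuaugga
miR-223-3p: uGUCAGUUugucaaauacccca
miR-223-5p: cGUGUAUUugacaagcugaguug
The 4 seeds differ from each other, and none of the other 716 rows shares a seed with any of them. The hairpins follow with both arms in capitals, to show which strand lies where.
Mir142: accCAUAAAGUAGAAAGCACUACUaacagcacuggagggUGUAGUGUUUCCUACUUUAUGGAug
Mir223: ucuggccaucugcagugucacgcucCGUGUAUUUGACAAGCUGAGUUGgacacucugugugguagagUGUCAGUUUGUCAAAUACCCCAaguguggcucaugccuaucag
Mir142 lies on the plus strand at chr11:87756864-87756927, in an intron of the noncoding host gene Mir142hg, with the arms 15 bases apart. Mir223 lies on the plus strand at chrX:96242817-96242926, within an exon of the noncoding gene F630028O10Rik, with the arms 19 bases apart. No other row matched any of the 4 over an unbroken run of 16 bases or more on either strand. The longest shared run was 13 bases, between miR-142-5p and miR-3964, a row with 1 read in each library. Longer matches broken by a mismatch were not sought. The opposite strand of the Mir142 locus is annotated as Mir142b, whose mature miRNA of 20 bases is the reverse complement of part of miR-142-3p. miR-142b was not analysed here, and no source used here says whether reads were assigned by strand. Some rows carried equal counts, such as miR-338-3p and miR-3065-5p, each at 469 reads in TAMs and 2776 in SMs. Others were nearly equal, such as miR-24-3p and miR-3074-5p, at 23231 and 23189 reads in TAMs and 19803 and 19725 in SMs. The same reads may thus have been counted in more than 1 row. miR-142-5p also shares an unbroken run of 10 bases with the opposite strand of miR-142-3p. Whether reads of miR-142b fell within the count of either arm of mir-142 was not tested.

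All 4 arms were lower in TAMs than in SMs. A level is given in TPM, the reads of a miRNA per 1000000 reads of the authors' total for the library, with no correction for length. The ratio of TPM in TAMs over SMs carries an exact 95% interval that covers counting error only, and PCR copies can make even that too narrow. miR-142-5p, the more abundant arm of its hairpin, stood at 5729 TPM in TAMs against 21578 TPM in SMs, from 76337 reads in TAMs and 332794 in SMs. That is 3.77-fold lower in TAMs (95% interval 3.74 to 3.80). miR-142-3p, the arm known in dendritic cells as a repressor of the Il6 mRNA, stood at 573 TPM in TAMs against 4553 TPM in SMs, or 7638 reads in TAMs and 70213 in SMs, which is 7.94-fold lower (7.76 to 8.13). The scarcer arm of mir-142 thus had the larger deficit. miR-223-3p, the guide strand of its hairpin, stood at 1413 TPM in TAMs against 8326 TPM in SMs, or 18828 reads in TAMs and 128412 in SMs, 5.89-fold lower (5.80 to 5.98). miR-223-5p, the passenger strand, stood at 36.3 TPM in TAMs against 104 TPM in SMs, 2.87-fold lower (2.59 to 3.19), and rested on the fewest reads of the 4, with 484 in TAMs and 1609 in SMs. No interval of one arm overlapped that of another, so by counting error the deficit was largest for miR-142-3p, then miR-223-3p, miR-142-5p and miR-223-5p.

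**Figure D1:**
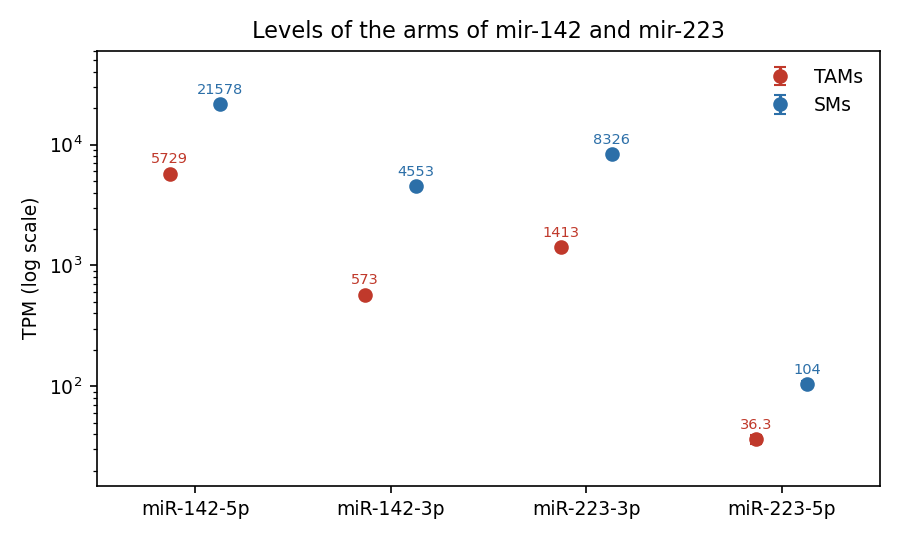
Level in TPM (log axis) of each arm of mir-142 and mir-223 in the 1 TAMs library (red) and the 1 SMs library (blue), with exact 95% intervals for counting error that are mostly smaller than the points. Each arm is lower in TAMs, from 5729 TPM against 21578 TPM for miR-142-5p to 36.3 TPM against 104 TPM for miR-223-5p.

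By abundance, miR-142-5p was the 15th miRNA of TAMs and the seventh of SMs, and miR-223-3p was the 36th of TAMs and the 14th of SMs. miR-142-3p was the 62nd of TAMs and the 24th of SMs, and miR-223-5p the 169th of TAMs and the 110th of SMs. All 4 thus stood further down the order in TAMs. Together, the arms of mir-142 made up 1.15% of the miRNA reads in TAMs (exact 95% interval 1.14 to 1.15%) and 3.99% in SMs (3.97 to 3.999%). The arms of mir-223 made up 0.263% in TAMs (0.260 to 0.267%) and 1.29% in SMs (1.28 to 1.29%). Summed over arms, which leaves out how strands are selected, mir-142 was 4.15-fold lower in TAMs (4.12 to 4.18) and mir-223 was 5.82-fold lower (5.73 to 5.91). All 4 arms together came to 7752 TPM in TAMs and 34561 TPM in SMs, 4.46-fold lower (4.43 to 4.49). In RNA of a whole population, fewer cells of a type and less of the miRNA per cell cannot be told apart, so these ratios are not a share of leukocytes.

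A deficit in TAMs was common in this pair of libraries. Those of miR-142-3p, miR-223-3p and miR-142-5p were among the larger ones, and that of miR-223-5p was not. The 10 TPM minimum in either library was reached by 264 miRNAs, of which 86 (32.6%) were lower in TAMs by 2-fold or more on the scale of TPM + 1 and 64 (24.2%) higher by as much, 56.8% in all. All 4 arms reached that minimum and all 4 were among the 86, but they come from only 2 precursors and are not 4 independent cases. Only 10 of the 264 miRNAs had a lower ratio of TPM + 1 than miR-142-3p, and 13 had a lower ratio than miR-223-3p, 28 than miR-142-5p and 51 than miR-223-5p. The median log2 ratio of the 264 was −0.36. Relative to that median, the log2 ratio of TPM + 1 was −2.63 for miR-142-3p, −2.20 for miR-223-3p, −1.56 for miR-142-5p and −1.14 for miR-223-5p. Other library totals moved the median by up to 0.48 on the log2 scale. The ratios of TPM of the 4 arms then ran from 0.132 to 0.491, all still at least 2-fold lower in TAMs. The split over all miRNAs was less stable. Scaled to the sum of the miRNA counts, 77 were higher and 68 lower. With the 10 leading miRNAs of each library, miR-142-5p among them, also left out of that sum, 96 were higher and 53 lower.

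**Figure D2:**
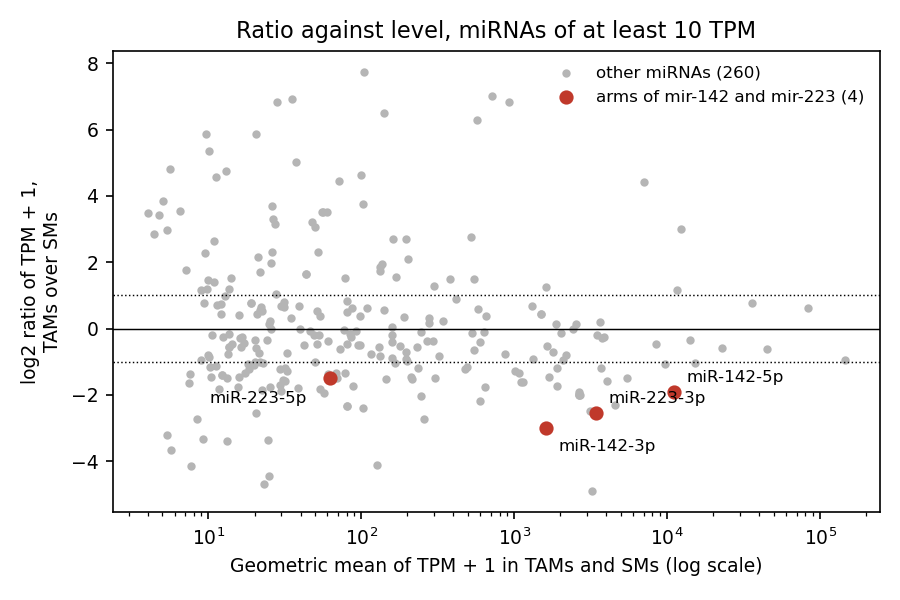
log2 ratio of TPM + 1 in TAMs over SMs against the geometric mean of TPM + 1 (log axis) for the 264 miRNAs with at least 10 TPM in either library, with the 4 arms of mir-142 and mir-223 in red and dotted lines at 2-fold. The 4 red points are among the 86 that lie below the lower dotted line.

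The balance of the arms differed between the libraries in both hairpins, and toward the 5p arm in both. In mir-142 the 5p arm is the major one, and its excess was larger in TAMs, with 9.99 reads of miR-142-5p for each read of miR-142-3p against 4.74 in SMs. The 5p arm took 90.9% of the reads of mir-142 in TAMs (exact 95% interval 90.7 to 91.1%) and 82.6% in SMs (82.5 to 82.7%). In mir-223 the 3p arm is the major one, and its excess was smaller in TAMs, with 38.9 reads of miR-223-3p for each read of miR-223-5p against 79.8 in SMs. The 5p arm took 2.51% of the reads of mir-223 in TAMs (2.29 to 2.74%) and 1.24% in SMs (1.18 to 1.30%). The ratio of 5p to 3p reads was thus 2.11-fold higher in TAMs for mir-142 (2.06 to 2.16) and 2.05-fold higher for mir-223 (1.85 to 2.28). The arms of a hairpin are read in the same library, so no library total enters these values. They compare numbers of reads, and how well each strand ligates to the adapters was not measured. Any reads of miR-142b counted as miR-142-3p or as miR-142-5p would enter the arm ratio of mir-142, and this was not tested.

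A shift of this size was not rare. Of 104 hairpins with at least 10 counts of each arm in each library, mir-142 and mir-223 included, 29 (27.9%) shifted at least 2-fold, 16 (15.4%) toward 5p in TAMs and 13 toward 3p. Some of the 104 shared the counts of an arm and are not separate cases. Among those shifted toward 5p, miR-467a and miR-467d shared their 3p counts, as did miR-669a and miR-669o. Among those not shifted, miR-486 (0.996) and miR-3107 (0.9998) had nearly equal counts in all their arms and may hold the same reads. Both also reached at least 100 counts of each arm. The median log2 shift was −0.01, with quartiles at −0.52 and 0.55, so shifts in either direction were about as common. With at least 100 counts of each arm, 7 of 43 hairpins (16.3%) shifted at least 2-fold, and mir-142 and mir-223 were among the 5 (11.6%) that shifted toward 5p. The other 3 were miR-574 with a shift of 4.36 (3.33 to 5.72), miR-342 with 2.86 (2.23 to 3.66) and miR-21a with 2.57 (2.51 to 2.64). miR-342, an intronic miRNA of Evl abundant in lymphocytes, resembled mir-223 in its arms, since the abundant 3p arm was 118 times the 5p arm in TAMs and 339 times in SMs. miR-150, of mature lymphocytes, had a shift of only 0.923 (0.538 to 1.67), with 17 reads of its 3p arm in TAMs and 75 in SMs. Among the 43 hairpins with at least 100 counts of each arm, the largest shifts toward 3p were those of miR-582, at 0.371 (0.325 to 0.423), miR-30e, at 0.496 (0.468 to 0.525), and miR-106b, at 0.510 (0.471 to 0.553).

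**Figure D3:**
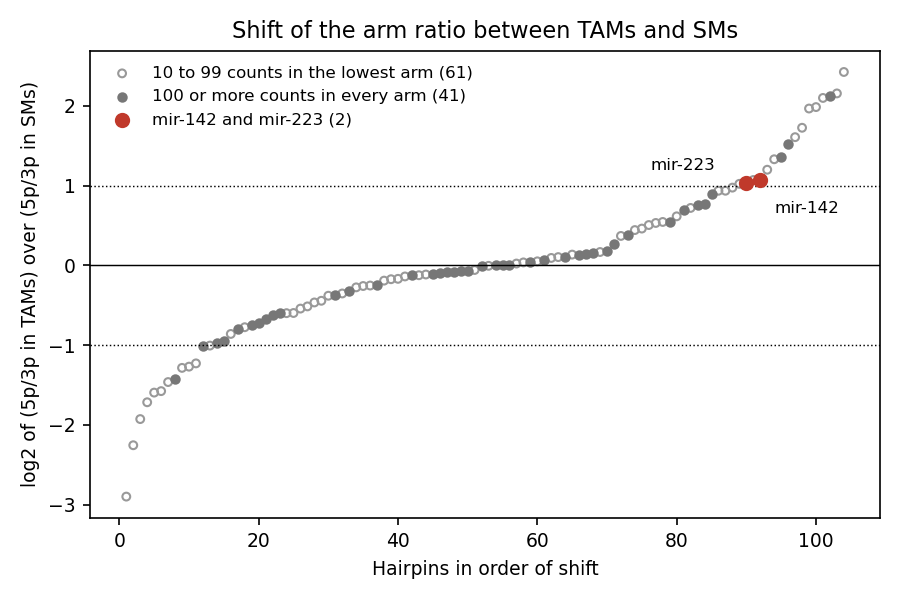
log2 of the 5p to 3p read ratio in TAMs over that in SMs, for 104 hairpins in order of the shift, with filled points for hairpins of at least 100 counts in every arm and library, open points for fewer, and dotted lines at 2-fold. mir-142 (2.11-fold) and mir-223 (2.05-fold) are among the 16 that lie above the upper line.

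The miRNAs whose ratio was closest to that of each arm were sought among the 140 that reached 100 TPM in either library. With only 1 library a group this likeness rests on a single ratio. Nearest to miR-142-5p was miR-340-5p, with a TPM of 1356 in TAMs and 5130 in SMs, and then miR-486-3p and miR-3107-3p, which cannot be told apart by their counts. Nearest to miR-142-3p were miR-139-5p, with a TPM of 98.8 in TAMs and 662.8 in SMs, and then miR-223-3p and miR-30e-5p. Nearest to miR-223-3p were miR-30e-5p, with a TPM of 1325 in TAMs and 7388 in SMs, and then miR-29b-3p and miR-139-5p. Nearest to miR-223-5p were miR-322-5p, miR-101b-3p and miR-30d-5p, with ratios of 0.345, 0.352 and 0.353 against its own 0.348. The gap in log2 ratio was at most 0.08 for the 3 nearest to miR-142-5p, while the nearest to miR-142-3p was 0.24 away.

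Since mir-142 is carried by leukocytes of all kinds, reads of other cell type miRNAs were set against each 100 reads of both mir-142 arms in the same library, a quotient free of the library total. Because mir-142 itself was lower in TAMs, a quotient above 1 was the rule: of 262 miRNAs past the 10 TPM minimum other than mir-142, 232 (88.5%) had an interval wholly above 1 and 20 (7.63%) wholly below 1. mir-223 had 23.0 reads per 100 reads of mir-142 in TAMs and 32.3 in SMs, so it was 0.713 times as frequent (0.701 to 0.725). This direction rested on the choice of arm. miR-223-3p had a quotient of TAMs over SMs of 0.704 against both arms of mir-142, 0.639 against miR-142-5p and 1.35 against miR-142-3p. Whether miR-223-3p was higher or lower per mir-142 read thus turned on the arm of mir-142 counted. The scarce miR-223-5p went the other way, with 0.576 reads per 100 of both mir-142 arms in TAMs and 0.399 in SMs, a quotient of 1.44 (1.30 to 1.60).
miR-150-5p, a miRNA of mature lymphocytes that represses Myb, had 1.92 reads per 100 in TAMs and 1.91 in SMs, a quotient of 1.005 (0.951 to 1.06) that was 0.913 against miR-142-5p alone and 1.92 against miR-142-3p alone. miR-342-3p had 16.5 per 100 in TAMs and 13.4 in SMs, a quotient of 1.23 (1.21 to 1.26). miR-181a-5p and miR-181b-5p, which are high in developing lymphocytes and present in many other cells, had quotients of 3.23 and 6.28. By their own levels, 5 of the 6 listed passed the 10 TPM minimum, of which 2 were lower in TAMs by 2-fold or more (miR-150-5p and miR-342-3p), and 3 were neither higher nor lower.
miR-511-3p, hosted by an intron of Mrc1, which encodes the macrophage receptor CD206, had 1.24 reads per 100 of mir-142 in TAMs and 0.334 in SMs, a quotient of 3.71 (3.42 to 4.03). It was the only arm of mir-511 past 10 TPM, and its own level was within 2-fold, at 78.2 TPM in TAMs against 87.4 TPM in SMs. miR-155-5p, induced by NF-κB in activated leukocytes, had a quotient of 13.8 (12.9 to 14.8), and miR-146a-5p, which restrains the same pathway, one of 0.137 (0.134 to 0.141). By level, miR-155-5p was higher in TAMs, at 238 TPM against 71.3 in SMs, and miR-146a-5p lower, at 586 TPM against 17668 in SMs. Reads of miR-146a-5p could be split with the near-identical miR-146b-5p. That miRNA was more abundant and went the other way, at 46610 TPM in TAMs against 27614 in SMs.

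**Figure D4:**
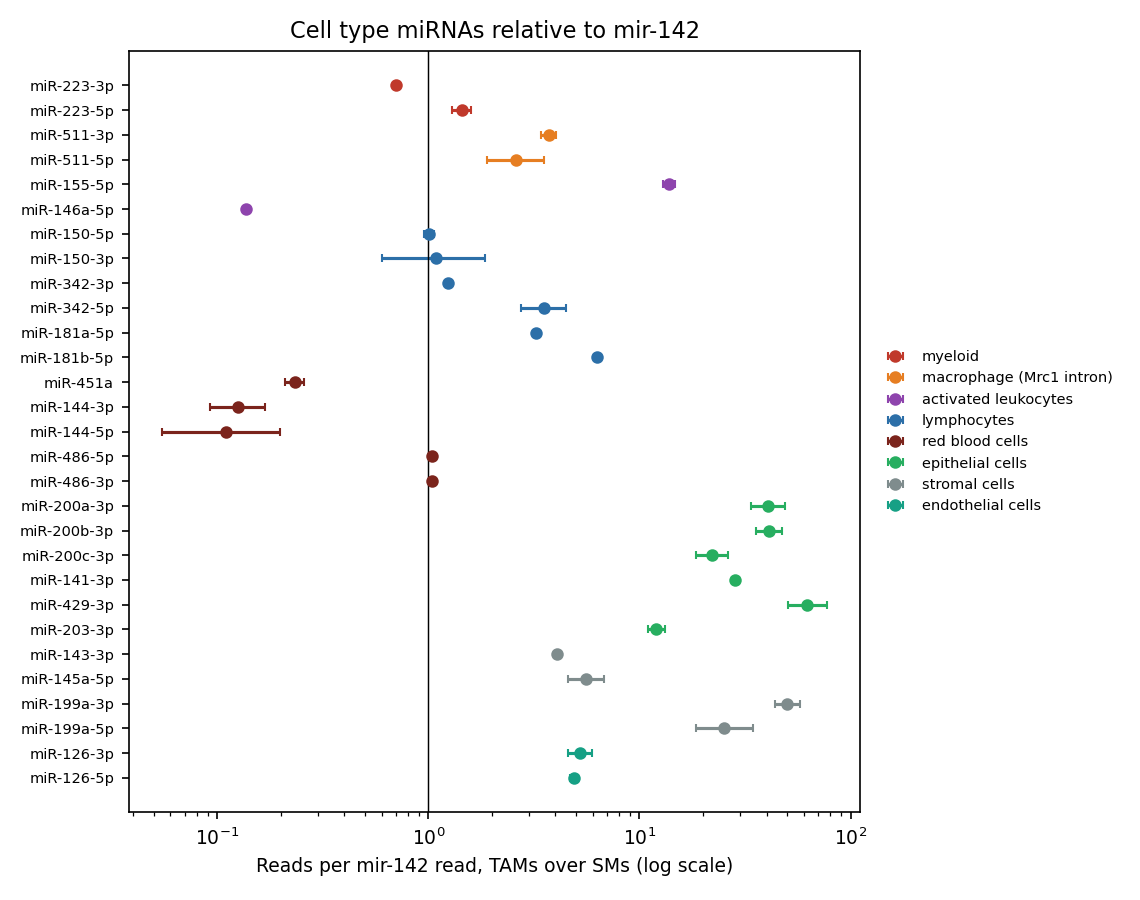
Reads of each cell type miRNA per read of mir-142 (both arms) in TAMs over the same in SMs, on a log axis with exact 95% intervals for counting error, for the 29 of 31 listed miRNAs with at least 10 reads in each library. miR-150-5p lies at 1.005 and miR-223-3p at 0.704, epithelial, stromal and endothelial miRNAs lie to the right, and miR-146a-5p, miR-451a and both arms of mir-144 lie to the left.

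miRNAs of other cell types also differed between the libraries, and each of the 33 listed rows had at least 1 read in both, the fewest being 1 read of the epithelial miR-205-5p in SMs. All 7 listed miRNAs of epithelial cells, the cells from which 4T1 derives, were higher in TAMs by 2-fold or more. Over all 264 miRNAs past the 10 TPM minimum, 24.2% were. The 7 had a summed level of 1897 TPM in TAMs against 284 in SMs and a median ratio of TPM + 1 of 8.81. The most abundant of them, miR-141-3p, stood at 1364 TPM in TAMs against 199 TPM in SMs. Of 5 listed miRNAs of stromal cells 4 passed the 10 TPM minimum, of which 2 were higher and 2 neither, with a summed level of 2617 TPM in TAMs and 2452 TPM in SMs. Both endothelial miRNAs, the arms of mir-126, were within 2-fold, with a summed level of 406 TPM in TAMs and 343 in SMs. The 5 red blood cell miRNAs on the list, which include both arms of mir-144, were each lower by 2-fold or more, against 32.6% of the 264. Their summed level was 2701 TPM in TAMs and 11282 TPM in SMs. Most of that sum was miR-486-5p, at 1343 TPM in TAMs and 5355 in SMs, and miR-486-3p, at 1325 and 5259. These 2 rows had nearly equal counts and may hold the same reads, so the sum may count them more than once. Among the 5 listed, miR-451a, which matures without Dicer in red cell precursors, stood at 29.3 TPM in TAMs against 520 TPM in SMs. Of the 28 listed miRNAs past the 10 TPM minimum other than mir-142, 22 had a quotient to mir-142 with its interval above 1, a smaller share than the 88.5% over all miRNAs, and 5 had it below 1. The part of epithelial and red blood cell RNA in the lower share of mir-142 and mir-223 in TAMs was not tested.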

How the data were processed

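TAMs and SMs each gave 1 small RNA library, and groups were taken from the sample titles. The authors counted reads per known mature mouse miRNA, with length variants allowed, and deposited raw counts. The deposited TPM is each count over a library total of 13324721 reads for TAMs and 15422872 for SMs, times 1000000. The submitters' processing notes name Bowtie2. No version of it, genome build or miRBase release was named in the sources used here. Deposited columns of the authors' own comparison (a chi-square P, a ratio and a mark) were not used, and 2 table lines stayed out, not analysed here.

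Ratios of TPM carry exact conditional binomial 95% intervals, shares exact Clopper-Pearson intervals, and arm shifts and quotients exact conditional odds ratio intervals (scipy 1.17.1 with pandas 2.3.3 and numpy 2.4.6 in Python 3.11.15). The intervals of TPM ratios and of arm shifts were tested on simulated data, and those of shares and quotients were not. Counts past 2-fold used log2(TPM + 1), a scale that shrinks the ratios of low miRNAs, and a minimum of 10 TPM in either library. Alternative scalings used edgeR 4.0.16 (TMM) and DESeq2 1.42.0 (size factors) in R 4.3.3. Alternative filters, pseudocounts, fold thresholds and mir-142 denominators were also tried. Plots were drawn with matplotlib 3.10.9.

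The miRNAs named are the members, members of 9 marker lists, the 3 miRNAs nearest in log2 ratio to each member, and the 3 hairpins with the largest arm shift in each direction among those with at least 100 counts of both arms in both libraries. Members and lists were chosen with earlier results of these data known. Sequences and positions are RefSeq's on GRCm38.p6, and host genes are those of GENCODE M21.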

Additional observations from a re-analysis of the deposited data

How the results depend on the processing

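No paired analysis was possible because TAMs and SMs had 1 library each, and none could be left out in turn. Every ratio to a library total moves by 1 factor per scaling. With the sum of the miRNA counts (factor 1.19) the ratio of TAMs over SMs was 0.316 for miR-142-5p, 0.150 for miR-142-3p, 0.202 for miR-223-3p, 0.415 for miR-223-5p, 0.287 for the summed arms of mir-142 and 0.205 for those of mir-223. With TMM (1.06) it was 0.282 for miR-142-5p, 0.134 for miR-142-3p, 0.180 for miR-223-3p, 0.256 for summed mir-142 and 0.182 for summed mir-223. With DESeq2 size factors (1.05) these were 0.278, 0.132, 0.178, 0.253 and 0.180 in the same order. With totals of miRNA counts minus the 10 leading miRNAs of each library (1.41) the ratios were 0.374 for miR-142-5p, 0.177 for miR-142-3p, 0.239 for miR-223-3p, 0.491 for miR-223-5p, 0.340 for summed mir-142 and 0.242 for summed mir-223. That scaling left miR-142-5p itself, which ranked 7 in SMs, out of the totals. It moved the median log2 ratio of TPM + 1 from −0.36 to 0.13. It gave 96 miRNAs higher and 53 lower in TAMs, against 64 and 86. With the sum of the miRNA counts 77 were higher and 68 lower. Without the filter 102 were higher and 115 lower, at a minimum of 100 TPM 34 were higher and 48 lower, and at 4-fold 42 were higher and 22 lower. Arm shifts do not depend on a library total. Hairpins past 2-fold were 29 at a minimum of 10 counts and 7 at 100 counts, and 6 passed 4-fold. No row matched an arm over 16 bases, so that alternative was not run. The quotient of miR-223-3p to mir-142 was 0.704, against 0.639 with miR-142-5p alone and 1.35 with miR-142-3p alone. Of 113 other alternative values, for quotients and list medians, 69 stayed within their interval or within 1.5 times, 44 moved, and 0 of those past 2-fold changed direction. With miR-142-5p alone, the quotients of miR-486-5p and miR-486-3p, 1.04 each with both arms, turned to 0.944 and 0.949. Depth limits miR-223-5p most, at 484 reads in TAMs.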
